A study of Homo sapiens with 2 samples.

Results

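The genes described here are 43 genes of the endoplasmic reticulum (ER) that fold new secretory and membrane proteins, sense unfolded protein, or send failed proteins to degradation, out of 25268 gene symbols measured. They were taken by symbol from a list that was drawn up with earlier results of these libraries known, by a rule that used no measured value, and all 43 were present in the files. The samples were C4-2B MDVR cells, an enzalutamide-resistant line of castration-resistant prostate cancer that is related to LNCaP and was kept in 20 µM of the antiandrogen enzalutamide. One library came from cells given 20 µM Indocin for 3 days and 1 library from cells given the vehicle DMSO for 3 days, both in the presence of enzalutamide. Indocin is indomethacin, a cyclooxygenase inhibitor that also inhibits the androgen-synthesis enzyme AKR1C3. With 1 library per group there was no replicate, so no difference below has an error across cultures, a test or a p-value.

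Proteins that enter the ER are folded by the chaperone HSPA5 and its cofactors, by lectin chaperones that read their sugar chains, and by oxidoreductases that form their disulfide bonds. When unfolded protein accumulates, sensors in the ER membrane start the unfolded protein response. ERN1 (IRE1 alpha) splices the mRNA of the transcription factor XBP1, ATF6 is cut in the Golgi by the proteases MBTPS1 and MBTPS2 to release a transcription factor, and EIF2AK3 (PERK) slows translation and favours that of ATF4. XBP1 and ATF6 are known to raise transcription of chaperone and degradation genes through promoter elements called ERSE, ERSE-II and UPRE, while ATF4 acts through the C/EBP-ATF response element, CARE. ER-associated degradation (ERAD) marks, extracts and ubiquitinates misfolded proteins for the proteasome.

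The unit was FPKM, in which fragments are divided by the length of the transcript and by library size, so that levels of different genes can be compared per length. The values summed to 583096 in the Indocin library and 617510 in the DMSO library, and the read depth behind them is unknown. All log2 ratios are log2((Indocin FPKM + 1)/(DMSO FPKM + 1)). A total of 11966 genes averaged 1 FPKM or more over the libraries and were not short RNAs, and all 43 members were among these. The median ratio of the 11966 genes was -0.025, with quartiles of -0.15 and 0.11. All 8 luminal prostate markers stood at 58.1 FPKM or more in the Indocin library, where they summed to 1545 FPKM, and at 71.7 FPKM or more in the DMSO library, where they summed to 1917 FPKM. Of 15 markers of basal, neuroendocrine, leukocyte, fibroblast and endothelial cells, 13 were under 1 FPKM in both libraries, the exceptions being CD68 and COL1A1, each under 7 FPKM.

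The promoter windows of 3 genes are shown because they belong to the genes on which the results turn, HERPUD1 and XBP1, which differed most, and HSPA5, the chaperone most often read as a sign of ER stress, which differed little. Each is the 250 bases before an annotated gene start in RefSeq on GRCh38.p14, 5′ to 3′ in the direction of the gene. Where a gene had several annotated starts, the first window that held an ERSE or ERSE-II was taken. XBP1 had a further annotated start, and neither element was found before that one. Capitals mark the fixed letters of ERSE (CCAAT, then 9 bases of any kind, then CCACG), ERSE-II (ATTGG, then 1 base of any kind, then CCACG) and the CARE core (TGATGCAA, or TTGCATCA on the other strand), searched on both strands.
HERPUD1, chr16:56931892-56932141, plus strand: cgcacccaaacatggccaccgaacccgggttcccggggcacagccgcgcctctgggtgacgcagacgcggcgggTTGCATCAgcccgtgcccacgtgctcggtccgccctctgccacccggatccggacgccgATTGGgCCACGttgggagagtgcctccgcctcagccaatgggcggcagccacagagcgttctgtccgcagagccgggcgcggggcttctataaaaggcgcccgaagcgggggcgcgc
XBP1, chr22:28800570-28800819, minus strand: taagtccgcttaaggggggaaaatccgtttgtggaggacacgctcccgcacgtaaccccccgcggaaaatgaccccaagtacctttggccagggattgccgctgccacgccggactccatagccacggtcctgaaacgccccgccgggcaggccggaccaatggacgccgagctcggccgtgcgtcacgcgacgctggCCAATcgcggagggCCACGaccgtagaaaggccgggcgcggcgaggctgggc
HSPA5, chr9:125241344-125241593, minus strand: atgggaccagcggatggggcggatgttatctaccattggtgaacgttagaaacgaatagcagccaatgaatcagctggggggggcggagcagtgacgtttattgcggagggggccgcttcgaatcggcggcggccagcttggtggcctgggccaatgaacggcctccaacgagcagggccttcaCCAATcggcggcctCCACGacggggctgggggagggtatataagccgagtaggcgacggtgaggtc
The HERPUD1 window held a CARE core from 176 to 169 bases and an ERSE-II from 117 to 107 bases before the start. The XBP1 window held an ERSE from 52 to 34 bases before the start, and the HSPA5 window held 1 from 66 to 48 bases before it.

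The sensors and transcription factors had the highest median ratio of the 4 role groups. XBP1, the transcription factor spliced by ERN1, stood at 261.4 FPKM in the Indocin library and 151.3 FPKM in the DMSO library, a 1.73-fold higher value (log2 ratio 0.78). ERN1, the sensor kinase and endonuclease, stood at 13.7 FPKM in the Indocin library and 8.28 FPKM in the DMSO library, 1.65-fold higher (0.66). ATF6, the sensor that is itself a transcription factor, stood at 13.8 FPKM in the Indocin library and 10.0 FPKM in the DMSO library, 1.38-fold higher (0.43). Both genes of the ERN1 to XBP1 branch thus passed 1.5-fold in the Indocin library, while ATF6 did not. A gene-level FPKM pools spliced and unspliced XBP1 mRNA, so it says nothing of splicing. These are bulk libraries, in which fewer cells of a kind and less RNA per cell cannot be told apart.

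The other sensors differed less. ATF6B, a paralog of ATF6, stood at 7.24 FPKM in the Indocin library and 5.92 FPKM in the DMSO library (0.25). MBTPS1, the site-1 protease that makes the first cut in ATF6, stood at 26.9 FPKM with Indocin and 25.3 FPKM with DMSO (0.086), and MBTPS2, the protease of the second cut, at 18.2 FPKM with Indocin and 18.5 FPKM with DMSO (-0.029). CREB3L2, an ER-anchored transcription factor processed in a similar way, stood at 23.8 FPKM with Indocin and 23.0 FPKM with DMSO (0.047). The ATF6-cutting proteases and CREB3L2 were therefore within 1.1-fold in these libraries. The median ratio of the 7 sensors and transcription factors was 0.25, with 6 above 0 and 1 below.

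**Figure D1:**
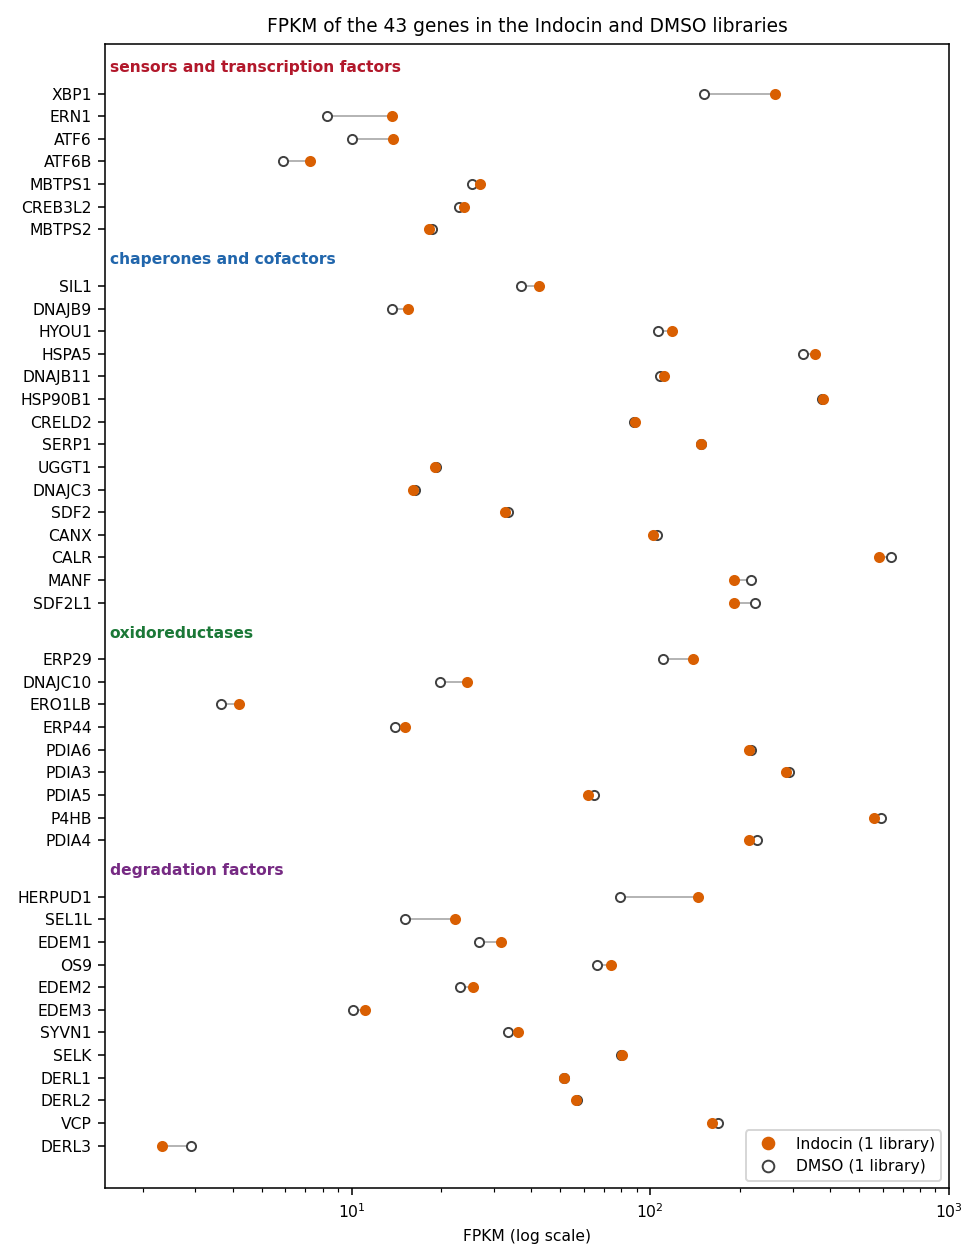
FPKM of each of the 43 genes (log axis) in the Indocin library (filled orange) and the DMSO library (open), grouped by role and ordered within a role by log2 ratio. XBP1, ERN1, SEL1L and HERPUD1 show the widest gaps, and most chaperones and oxidoreductases show nearly superposed points.

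Chaperones and their cofactors showed little difference. HSPA5 (BiP), the main Hsp70 chaperone of the ER, stood at 355 FPKM in the Indocin library and 324.6 FPKM in the DMSO library, 1.09-fold higher (0.13). HSP90B1, the ER member of the Hsp90 family, stood at 379.9 FPKM with Indocin and 376.5 FPKM with DMSO (0.013). HYOU1, a nucleotide exchange factor for HSPA5, stood at 118.7 FPKM with Indocin and 106.4 FPKM with DMSO (0.16), and SIL1, which has the same role, at 42.4 FPKM with Indocin and 37.0 FPKM with DMSO (0.19). SIL1 had the highest ratio of the 15 genes of this group, and no member of the group reached a log2 ratio of 0.32 in size.

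The J-domain cochaperones, which stimulate the ATPase of HSPA5, split into higher and near-equal values. DNAJB9 stood at 15.4 FPKM with Indocin and 13.6 FPKM with DMSO (0.17), DNAJB11 at 111.1 FPKM with Indocin and 108.1 FPKM with DMSO (0.039), and DNAJC3 at 16.1 FPKM with Indocin and 16.3 FPKM with DMSO (-0.020). DNAJB9 is known as a target of XBP1, and its ratio was 0.17 where that of XBP1 was 0.78.

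The lowest ratios in the group belonged to small soluble ER proteins of high level. SDF2L1, which binds DNAJB11 and aids HSPA5, stood at 190.5 FPKM in the Indocin library and 224.6 FPKM in the DMSO library (-0.24), and MANF, a secreted HSPA5 cofactor, at 190.2 FPKM with Indocin and 217.1 FPKM with DMSO (-0.19). SDF2, the paralog of SDF2L1, stood at 32.7 FPKM with Indocin and 33.4 FPKM with DMSO (-0.032). CRELD2, a secreted protein known to be induced together with MANF by ER stress, stood at 89.0 FPKM with Indocin and 88.6 FPKM with DMSO (0.0076). SDF2L1 and MANF are commonly induced by ER stress, and here the values of both were lower in the Indocin library.

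The lectin cycle was close to equal. Calreticulin, CALR, the most abundant of the 43 by mean FPKM, stood at 582 FPKM in the Indocin library and 638 FPKM in the DMSO library (-0.13), and its membrane-bound counterpart calnexin, CANX, at 102 FPKM with Indocin and 105.5 FPKM with DMSO (-0.049). UGGT1, which adds glucose back to misfolded glycoproteins, stood at 19.0 FPKM with Indocin and 19.2 FPKM with DMSO (-0.011). SERP1, a translocon-associated protein that stabilises membrane proteins under stress, stood at 148 FPKM with Indocin and 147.6 FPKM with DMSO (0.0039). The median ratio of the 15 chaperones and cofactors was 0.0039, with 8 above 0 and 7 below.

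Among the 9 oxidoreductases the 5 protein disulfide isomerases had slightly lower values as deposited, a direction that depended on the processing for 4 of them. The other genes of the group had higher values in the Indocin library. P4HB, the founding disulfide isomerase, stood at 560.4 FPKM in the Indocin library and 593 FPKM in the DMSO library (-0.081). PDIA3, the partner of the lectin chaperones, stood at 285.8 FPKM with Indocin and 290.5 FPKM with DMSO (-0.023), PDIA4 at 214.7 FPKM with Indocin and 227.7 FPKM with DMSO (-0.085), PDIA5 at 62.0 FPKM with Indocin and 64.9 FPKM with DMSO (-0.065), and PDIA6 at 215 FPKM with Indocin and 217.9 FPKM with DMSO (-0.019). PDIA3, PDIA5 and PDIA6 changed sign when the libraries were rescaled to a common upper quartile or a common FPKM sum, PDIA3 and PDIA6 also on centring and trend removal, and P4HB on trend removal (0.0095). PDIA4 kept its sign, but its ratio was -0.0045 with a common sum.

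ERP29, a redox-inactive relative of the disulfide isomerases, had the highest ratio of the group, 138.7 FPKM in the Indocin library and 110.3 FPKM in the DMSO library, 1.26-fold higher (0.33). In the reference annotation its exons overlap an opposite-strand gene over 540 bases, and the strand setting of the counting is not given in the sources used here. DNAJC10, a reductase that helps unfold proteins for degradation, stood at 24.3 FPKM with Indocin and 19.8 FPKM with DMSO (0.28). The exons of DNAJC10 overlap another gene on the same strand over 338 bases in that annotation. ERP44, which retains oxidases in the ER, stood at 15.1 FPKM with Indocin and 13.98 FPKM with DMSO (0.11), and the oxidase ERO1LB at 4.19 FPKM with Indocin and 3.65 FPKM with DMSO (0.16). The other ER oxidase, ERO1L, which is not among the 43, stood at 19.0 FPKM with Indocin and 20.2 FPKM with DMSO (-0.087). The median ratio of the 9 oxidoreductases was -0.019, and it was 0.053 on rescaling to a common upper quartile and 0.061 on rescaling to a common sum.

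The degradation factors held the gene with the highest ratio of all 43. HERPUD1, an ER membrane protein that organises the ERAD ligase complex, stood at 145 FPKM in the Indocin library and 79.3 FPKM in the DMSO library, 1.83-fold higher (0.86), which placed it 124th from the top among the 11966 genes. XBP1 was 147th and ERN1 215th. SEL1L, the adaptor that holds the ligase SYVN1 in that complex, stood at 22.1 FPKM with Indocin and 15.1 FPKM with DMSO, 1.46-fold higher (0.52). SYVN1 (HRD1), the ubiquitin ligase itself, stood at 36.1 FPKM with Indocin and 33.3 FPKM with DMSO (0.12). The organiser and the adaptor thus differed more than the ligase they serve.

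The mannosidase-like EDEM proteins, which mark glycoproteins for degradation, all had ratios above 0. EDEM1, which is known as an XBP1 target, stood at 31.6 FPKM in the Indocin library and 26.7 FPKM in the DMSO library (0.24), EDEM2 at 25.5 FPKM with Indocin and 23.1 FPKM with DMSO (0.14), and EDEM3 at 11.1 FPKM with Indocin and 10.1 FPKM with DMSO (0.13). OS9, the lectin that reads the mark, stood at 73.7 FPKM with Indocin and 66.5 FPKM with DMSO (0.15). None of these 4 reached a log2 ratio of 0.32.

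The factors that move proteins out of the ER were near equal, apart from DERL3. DERL1 stood at 51.6 FPKM in the Indocin library and 51.5 FPKM in the DMSO library (0.0036) and DERL2 at 56.4 FPKM with Indocin and 56.7 FPKM with DMSO (-0.0077). DERL3 stood at 2.33 FPKM with Indocin and 2.91 FPKM with DMSO (-0.23), the lowest level of the 43 genes, and its exons overlap those of SMARCB1 on the opposite strand over 2911 bases in the reference annotation. SELK, a selenoprotein of the Derlin complex, stood at 80.7 FPKM with Indocin and 79.95 FPKM with DMSO (0.014), and VCP, the ATPase that pulls proteins into the cytosol, at 160.6 FPKM with Indocin and 168.6 FPKM with DMSO (-0.070). The median ratio of the 12 degradation factors was 0.12, with 9 above 0 and 3 below.

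Of the 43 genes, 3 (HERPUD1, XBP1 and ERN1) passed 1.5-fold on the higher side in the Indocin library, as did 2.2% of all tested genes, and 0 passed it on the lower side, as did 0.744% of all tested genes. A log2 ratio of 0.32 or more was reached by 6 of the 43 (SEL1L, ATF6 and ERP29 in addition), against 6.92% of all tested genes, and one of -0.32 or less by 0, against 7.29%. Most members had levels above 10 FPKM. Among the 6797 tested genes that averaged 10 FPKM or more, 1.72% passed 1.5-fold upwards and 0.809% downwards, 4.58% reached 0.32, and 8.19% reached -0.32. With a pseudocount of 5 FPKM the ratio of ERN1 was 0.49, short of 1.5-fold, and SEL1L passed that fold on rescaling to a common upper quartile (0.59) or a common sum (0.60). At the lower threshold ERP29 was just short with a pseudocount of 5 FPKM (0.318), and DNAJC10 reached it under both rescalings (0.354 and 0.362). Exons of HERPUD1, XBP1, ERN1, SEL1L and ATF6 did not overlap those of another gene by 60 bases or more in the reference annotation, while those of 20 of the 43 did.

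**Figure D2:**
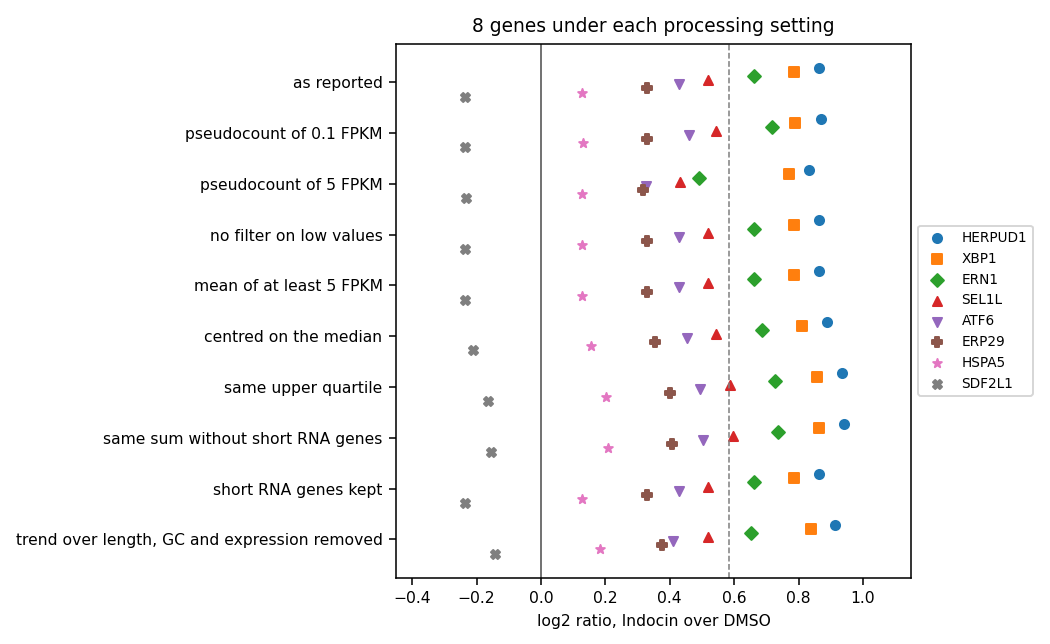
Log2 ratio (Indocin over DMSO) of 8 of the 43 genes as reported and under each of 9 processing alternatives, with a dashed line at 1.5-fold. HERPUD1 and XBP1 lie right of that line in each row, ERN1 in each but the pseudocount of 5 FPKM (0.49), HSPA5 stays near 0.13 to 0.21 and SDF2L1 stays below 0.

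The median ratio of the 43 genes was 0.039, against -0.025 for all tested genes. Ratios were above 0 for 27 and below 0 for 16, where 44.8% of all tested genes and 36.1% of those averaging 10 FPKM or more were above 0. Under either rescaling 37 were above 0, but the median of all tested genes then also lay above 0. It was 0.040 with a common upper quartile and 0.046 with a common sum, so the shares above do not apply to that count. Relative to the median of all tested genes 32 of the 43 lay above and 11 below, against 50.0% above by definition. With the dependence of the ratio on length, GC content and level taken out, 39 of the 43 lay above that median, and HERPUD1 (0.91), XBP1 (0.84) and ERN1 (0.65) stayed past 1.5-fold. Without HERPUD1, XBP1 and ERN1, a choice made after seeing their values, the median of the other 40 was 0.013.

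**Figure D3:**
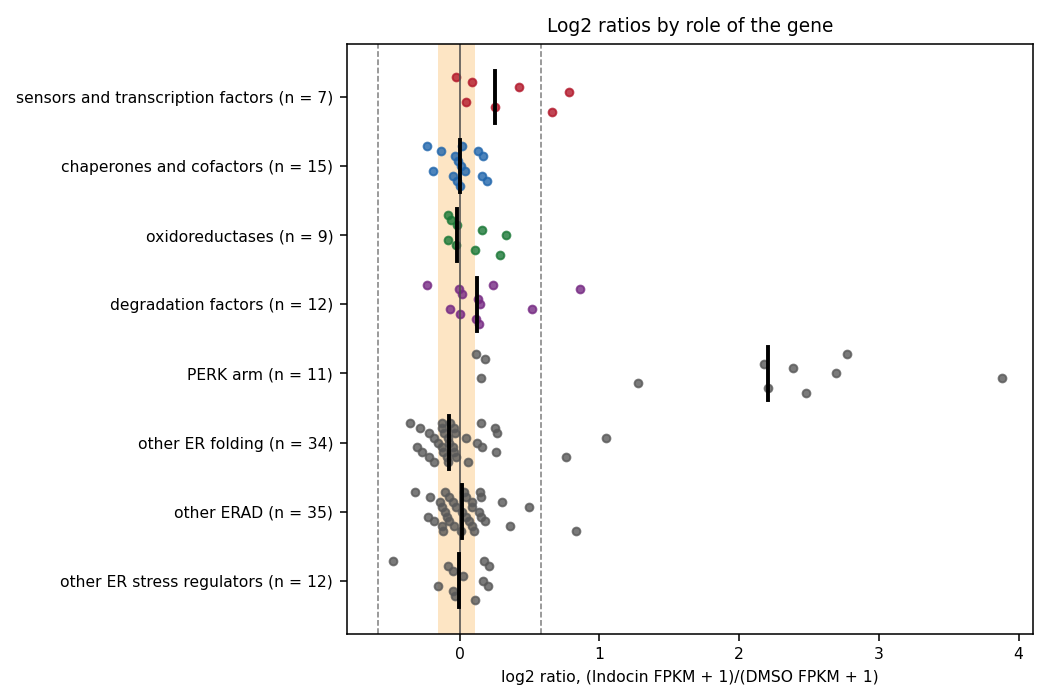
Log2 ratios (Indocin over DMSO) of the 43 genes by role (coloured) and of 4 further gene lists (grey), 1 point per tested gene. Black bars are medians, the shaded band runs between the quartiles of all tested genes and dashed lines mark 1.5-fold. Most genes listed for the PERK arm (group median 2.21) lie far to the right, while chaperones and oxidoreductases differ by less than 1.3-fold.

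The summed FPKM describes the level of this machinery in each library as a relative value, not as an amount of mRNA. The 43 genes summed to 4974 FPKM in the Indocin library and 4854 FPKM in the DMSO library, which was 0.853% and 0.786% of all FPKM there. The 15 chaperones and cofactors summed to 2392 FPKM with Indocin and 2456 FPKM with DMSO, and the 9 oxidoreductases to 1520 FPKM with Indocin and 1542 FPKM with DMSO. The 12 degradation factors summed to 697 FPKM with Indocin and 614 FPKM with DMSO, and the 7 sensors and transcription factors to 365 FPKM with Indocin and 242 FPKM with DMSO. The log2 ratio of the role sums was -0.038 for chaperones, -0.020 for oxidoreductases, 0.18 for degradation factors and 0.59 for sensors and transcription factors. As shares of all FPKM the first 2 turned the other way, with chaperones at 0.410% in the Indocin library and 0.398% in the DMSO library and oxidoreductases at 0.261% with Indocin and 0.250% with DMSO, because the FPKM total was smaller in the Indocin library. The difference among sensors came mostly from XBP1.

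**Figure D4:**
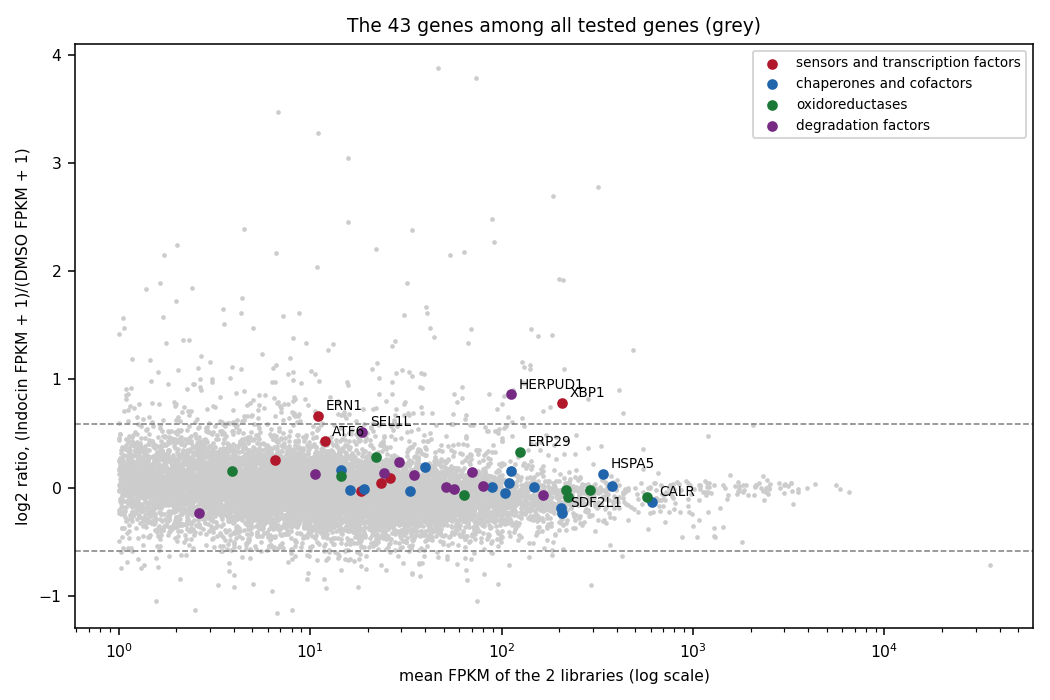
Log2 ratio against mean FPKM (log axis) for all 11966 tested genes (grey) and the 43 genes (coloured by role), with dashed lines at 1.5-fold. HERPUD1 and XBP1 stand above the dashed line at means over 100 FPKM, while CALR (mean 610 FPKM) and HSPA5 (mean 340 FPKM) lie in the main cloud.

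Most genes listed for the third arm of the unfolded protein response had far higher ratios. Of 11 genes listed for this PERK arm, 8 passed 1.5-fold upwards in the Indocin library and 0 downwards, where 2.2% and 0.744% of all tested genes did. The median ratio of the 11 was 2.21. The 8 past 1.5-fold were CHAC1 (3.88), DDIT4 (2.77), ASNS (2.69), TRIB3 (2.48), ATF3 (2.38), SESN2 (2.21), DDIT3 (2.18) and ATF4 (1.28). They were listed with their values in these libraries known, so their direction is not independent evidence, and 1 library per group allows no test of the difference between arms. The sensor of this arm, EIF2AK3, stood at 9.91 FPKM with Indocin and 9.08 FPKM with DMSO (0.11), where the ratio of ERN1 was 0.66. The phosphatase subunits that reverse the arm, PPP1R15A (0.18) and PPP1R15B (0.15), also stayed under 0.32. ATF4 can also be raised by the other kinases that phosphorylate eIF2 alpha, and which of them acted was not measured here.

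Further genes of ER folding, ERAD and ER stress lay near the median of all genes. Of 81 measured genes outside the PERK arm, 3 passed 1.5-fold upwards and 0 downwards, where 2.2% and 0.744% of all tested genes did. The median of the 81 was -0.038. The highest of the 3 was CLGN, a calnexin homolog of the testis, at 10.7 FPKM in the Indocin library and 4.66 FPKM in the DMSO library (1.05). RHBDD1, a rhomboid protease of ERAD, stood at 8.59 FPKM with Indocin and 4.39 FPKM with DMSO (0.83), and GPX8, a peroxidase of the ER membrane, at 7.07 FPKM with Indocin and 3.76 FPKM with DMSO (0.76). All 3 had DMSO values under 5 FPKM, and with a pseudocount of 5 FPKM CLGN (0.70) was the only 1 past 1.5-fold, with RHBDD1 at 0.53 and GPX8 at 0.46. The 34 genes of ER folding had a median of -0.080 with 24 below 0, where 6605 of all 11966 tested genes were below 0. The 35 of ERAD had a median of 0.016, and the 12 of ER stress regulation a median of -0.0062. TRAF2, the adaptor that links ERN1 to kinase signalling, had the lowest ratio of the 81, at 14.95 FPKM with Indocin and 21.2 FPKM with DMSO (-0.48).

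The promoter elements named above were searched in the 250 bases before every annotated start. RefSeq windows were matched for 40 of the 43 genes (not PDIA3, DERL1 and DERL3). An ERSE was found for 9 of the 40 members, or 22.5%, against 0.0916% of 27305 genes, and an ERSE-II for 3 members, or 7.5%, against 0.0659%. Both elements are known from genes of this kind, and ERSE-II was added after the ratios were seen. The higher shares among members are therefore a description and not an independent result. The UPRE motif (TGACGTGG) was found for 3 members (7.5%), HYOU1, DNAJC10 and VCP, against 0.78% of genes, and in HYOU1 it overlaps an ERSE-II. Of the 78 further ER and PERK arm genes with a matched window, 3 (3.85%) also held it. The short motif CCACG is contained in ERSE and ERSE-II, and UPRE overlaps it on its other strand. It was found for 28 members, or 70.0%, against 37.5% of the 27305 genes. Among the 78 further genes 45 (57.7%) held it, as did 5087 of the 9570 tested genes with a window, so it is common outside the members. The sites other than those in the 3 windows are shown because they mark the genes whose promoters share an element with HSPA5, XBP1 or HERPUD1, written in the direction of the gene with the fixed letters in capitals.
HSP90B1, ERSE, chr12:103930216-103930234, plus strand: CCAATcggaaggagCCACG
HSP90B1, ERSE, chr12:103930321-103930339, plus strand: CGTGGtgcggcgcgATTGG
CALR, ERSE, chr19:12938384-12938402, plus strand: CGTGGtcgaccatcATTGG
CANX, ERSE, chr5:179698778-179698796, plus strand: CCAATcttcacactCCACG
PDIA6, ERSE, chr2:10812853-10812871, minus strand: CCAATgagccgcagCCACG
CRELD2, ERSE, chr22:49918554-49918572, plus strand: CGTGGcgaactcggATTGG
SERP1, ERSE, chr3:150546710-150546728, minus strand: CGTGGagacagcgaATTGG
ERO1LB, ERSE, chr1:236282183-236282201, minus strand: CGTGGtcccgcctcATTGG
SDF2L1, ERSE-II, chr22:21642114-21642124, plus strand: CGTGGaCCAAT
HYOU1, ERSE-II, chr11:119057274-119057284, minus strand: CGTGGtCCAAT
HYOU1, ERSE-II, chr11:119057380-119057390, minus strand: CGTGGtCCAAT
Sites that begin with CGTGG match on the opposite strand of the gene.

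Sharing one of these elements did not go with one ratio. The 9 members with an ERSE had a median of 0.0076 and ranged between -0.13 for CALR and 0.78 for XBP1, and XBP1 was the 1 of them past 1.5-fold. The 3 members with an ERSE-II were SDF2L1 (-0.24), HYOU1 (0.16) and HERPUD1 (0.86). The last is the highest ratio of the 43 and the first is among the lowest, with that of DERL3 (-0.23) close to it. The 28 members with neither had a median of 0.096. HERPUD1 was the only 1 of the 40 with a CARE core, a motif found in 0.967% of genes. Of the 78 further genes with a matched window, 2 (2.56%) held a CARE core. They were CHAC1 (3.88) and PPP1R15B (0.15), so the other PERK arm genes with a matched window, among them DDIT4, TRIB3 and ATF4, held none. Among all tested genes in the promoter table, 14 of the 55 with a CARE core (25.5%) passed 1.5-fold upwards in the Indocin library and 0 downwards, against 2.11% upwards among all 9570. Of the 15 tested genes with an ERSE, which include the 9 members, 1 passed it, and this was XBP1. Of the 13 with an ERSE-II, which include the 3 members, 1 did, and this was HERPUD1. The ERSE count therefore largely repeats that of the members. Most of the 13 genes with an ERSE-II were not members, and the median ratio of the 13 was -0.11. A match of letters is not evidence of binding, and no match says only that these letters are not in this window.

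**Figure D5:**
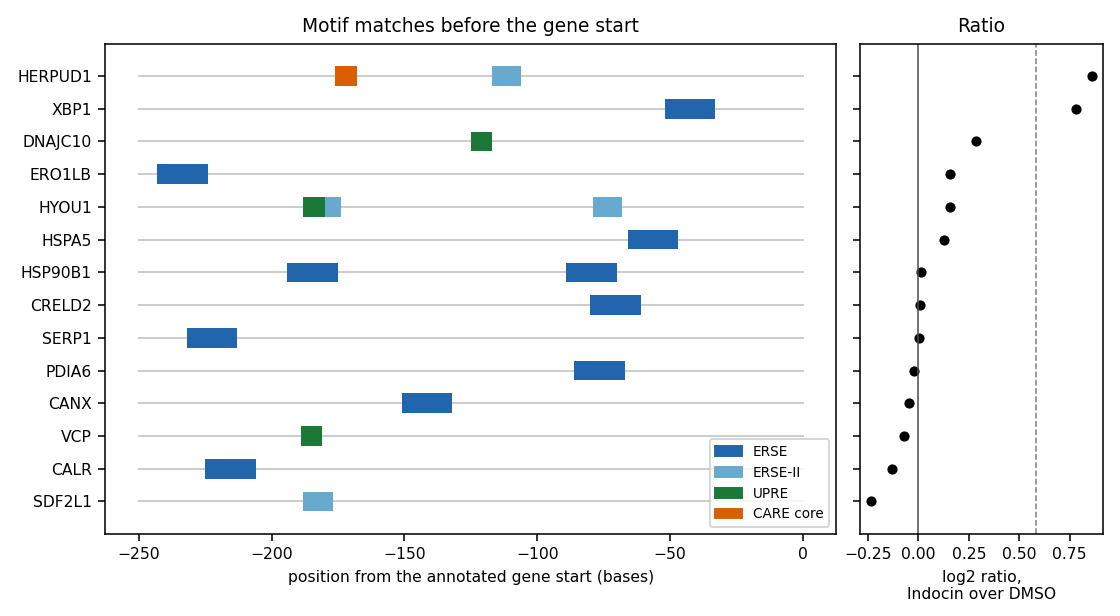
Left, positions of motif matches in the 250 bases before an annotated start (0) of 14 members, and right, the log2 ratio of each (Indocin over DMSO, dashed line at 1.5-fold), with the highest ratio on top. HERPUD1 carries the only CARE core, and the genes with an ERSE spread over ratios between -0.13 and 0.78.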

How the data were processed

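RNA-seq libraries of 1 Indocin and 1 DMSO culture were prepared with a stranded mRNA kit from TRIzol RNA, per the labels' protocols. The authors deposited 1 FPKM value for each gene symbol, per the file headers, and all lines carried the status OK. TopHat, Cufflinks, Cuffnorm, StringTie and bcl2fastq, with the builds hg19 and GRCh37, are listed in the submitters' processing notes. What each tool did, which annotation was used and whether strand was used in counting is not given in the sources used here. Depth is unknown, so no counting interval could be given.

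Log2 ratios used a pseudocount of 1 FPKM, which understates folds of low genes. Genes entered if they averaged 1 FPKM or more, and 2043 short RNA symbols were removed by how the symbol begins (host transcripts kept). A member was counted at 1.5-fold and at a log2 ratio of 0.32 on this scale, beside the share of all 11966 tested genes. No test was run with 1 library per group. Alternatives were other pseudocounts and filters, centring, rescaling to the same upper quartile or sum, short RNA genes kept, and removal, by least squares, of a cubic trend over length, GC content and level. Length and GC content were those of the longest GENCODE 29 transcript on GRCh38, found by symbol for all 43 members and 97.8% of tested genes.

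Members, role groups and further lists were chosen with earlier results of these data known, and the ERSE-II motif was added after the ratios were seen. Every member is named. Of the further genes, those past 1.5-fold, ATF4, DDIT3, PPP1R15A, EIF2AK3 and ERO1L are named by rule, and TRAF2 and PPP1R15B were named after their values were seen. Of 97 further genes in the files 92 passed the minimum. Exon overlaps of at least 60 bases, on either strand, were taken from GENCODE for names only, and 20 of the 43 members had one. For 5 members an overlap was on the same strand. No protein sequence was used here. The ratio calculation was tested on simulated data. Calculations used Python 3.11.15, pandas 2.3.3 and numpy 2.4.6.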

Additional observations from a re-analysis of the deposited data

How the results depend on the processing

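No paired analysis was possible because each group had 1 library, and no library could be left out. Under the 9 alternatives, the count of members at least 1.5-fold higher was 2 to 4 (3 as reported) and that at a log2 ratio of 0.32 or more was 5 to 7 (6 as reported), with 0 as far on the lower side in any of them. Over all genes the count at least 1.5-fold higher ran from 127 with a pseudocount of 5 FPKM to 421 with a pseudocount of 0.1 FPKM (263 as reported). On the lower side it ran from 36 to 188 (89 as reported). A steady member count thus stood beside a changing background, and all-gene counts at 0.32 were not made for the alternatives. The log2 ratio of HERPUD1 lay between 0.83 and 0.94, that of XBP1 between 0.77 and 0.86, and that of ERN1 between 0.49 and 0.73. With a pseudocount of 5 FPKM the count of further genes outside the PERK arm past 1.5-fold upwards was 1 (3 as reported and in the other alternatives). Role medians moved by under 0.1 in each alternative, and the count of members above the median of all tested genes lay between 27, with no filter on low values, and 39, after trend removal. With no filter that median is 0, because genes listed at 0 in both libraries enter. Rescaling to the same upper quartile moved the median of all tested genes to 0.040 and the same sum moved it to 0.046, and each changed the sign of 10 members within 1.1-fold of equal, while centring changed 5 and trend removal 4. A mean of at least 5 FPKM left out 2 members, DERL3 and ERO1LB. The depth of either library is unknown, so small ratios cannot be set against counting error.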

Other observations

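Among the 43 genes, those of lower level had higher ratios. The 17 genes averaging 100 FPKM or more had a median log2 ratio of -0.019, with 8 above 0 and 9 below, and the 26 genes under that level had a median of 0.11, with 19 above 0 and 7 below. The cutoff was chosen after the values were seen. Across the 43 genes the Spearman rank correlation between mean FPKM and the ratio was -0.37, and across all 11966 tested genes it was -0.24. Both are descriptions across genes of the same pair of libraries, and genes are not independent replicates. XBP1, at a mean of 206 FPKM, and HERPUD1, at 112 FPKM, stood apart from that order.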
